A study of Drosophila melanogaster with 3 samples.

Results

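The Enhancer of split complex is a cluster of small genes on the right arm of Drosophila chromosome 3, and 10 of its genes were examined for occupancy by the CG44002-eGFP fusion protein. They are 7 basic helix-loop-helix (bHLH) genes, E(spl)mdelta-HLH, E(spl)mgamma-HLH, E(spl)mbeta-HLH, E(spl)m3-HLH, E(spl)m5-HLH, E(spl)m7-HLH and E(spl)m8-HLH, and 3 genes of the Bearded family, E(spl)malpha-BFM, E(spl)m2-BFM and E(spl)m4-BFM. They are 10 of 18164 annotated genes on 6 chromosome arms, of which 13945 code for protein. The region reached from 5 kb before the first to 5 kb after the last of them, which is chr3R:25992621-26046008 of the dm6 build, or 53.4 kb. It held 12 of the 7089 peak summits of the reproducible list, numbered 1 to 12 along the arm. The complex was chosen on the measured values of these same peak lists, so the number, signal and rank of its summits are given as a description, with no test.

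The Notch receptor, when a neighbouring cell presents a ligand, is cut and its intracellular part joins the DNA-binding protein Su(H) to activate target genes. The Enhancer of split genes are the classical targets of this pathway in flies. Their bHLH proteins are repressors that recruit the co-repressor Groucho, encoded by gro next to the complex, and they hold back the proneural genes in cells that do not become neural precursors. The Bearded family proteins are small and interfere with Neuralized, a ubiquitin ligase that activates Notch ligands.

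The chromatin came from whole prepupae, the stage between larva and pupa, with males and females pooled. All samples belonged to 1 group of 3 biological replicates of a transgenic line (strain CG34406-GFP) that expresses CG44002 with GFP at its C terminus. The labels name CG34406 for the strain and antibody and CG44002 for the fusion, without saying how these names relate, and the RefSeq gene table gives CG34406 as a synonym of both CG44002 and the pseudogene CR44003. Chromatin was sonicated to fragments of 200 to 800 bp and precipitated with an antibody against GFP. No group lacked the tag, and the control file named for each list was not analysed here. A whole animal mixes all its tissues, so a peak says nothing of which cells carried it. The reproducible list was thresholded by the irreproducible discovery rate (IDR), which measures how well peak ranks repeat between replicates, and it is pooled. Ranked by signal, those 7089 peaks fill the first 7089 places among the 30000 pooled ones. Spread between replicates therefore comes from the 3 replicate lists of 30000 peaks each, and a replicate's 7089 highest-signal peaks are called its top peaks. Rank 1 is the highest signal in a list. Read depth is unknown.

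The sequences of 5 summits are shown first because they span the range of the complex. Summits 5 and 12 carried the highest signal of the 12, summits 2 and 7 the next highest, and summit 3 lay closest to the start of a member gene. Each is 100 bp centred on the summit, in dm6 coordinates, with runs of 6 or more A or T bases in capitals.
Summit 5, between E(spl)mbeta-HLH and E(spl)malpha-BFM, chr3R:26009048-26009147, + strand: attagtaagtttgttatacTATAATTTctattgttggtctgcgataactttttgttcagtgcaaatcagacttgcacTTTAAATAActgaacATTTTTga
Summit 12, in an intron of gro, chr3R:26042452-26042551, + strand: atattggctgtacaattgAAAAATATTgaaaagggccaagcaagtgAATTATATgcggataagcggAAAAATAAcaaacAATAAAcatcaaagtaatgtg
Summit 2, between CG43116 and E(spl)mdelta-HLH, chr3R:25997247-25997346, + strand: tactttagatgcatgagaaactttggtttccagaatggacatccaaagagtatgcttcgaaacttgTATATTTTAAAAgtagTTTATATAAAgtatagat
Summit 7, upstream of E(spl)m2-BFM, chr3R:26017932-26018031, + strand: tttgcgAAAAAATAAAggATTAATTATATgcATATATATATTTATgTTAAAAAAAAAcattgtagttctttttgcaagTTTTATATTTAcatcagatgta
Summit 3, upstream of E(spl)mbeta-HLH, chr3R:26006116-26006215, + strand: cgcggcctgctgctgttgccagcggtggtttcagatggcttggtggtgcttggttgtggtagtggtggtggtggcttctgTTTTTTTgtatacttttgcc

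The 100 bp of summit 7 held 5 A/T runs covering 57 bases, and those of summit 3 held 1 run of 7 bases.

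Most occupied sites lay between the genes. Of the 12 summits, 10 were upstream of the nearest annotated start and 0 lay in coding sequence. A distance of 500 bp or less to a start placed 7 of them at promoters, and the other 5 were intergenic. Summits 1 and 12 also lay in introns, of CG43116 and gro. The nearest start belonged to a member gene for 4 summits, to a noncoding RNA gene for 3 and to another coding gene for 5.

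**Figure D1:**
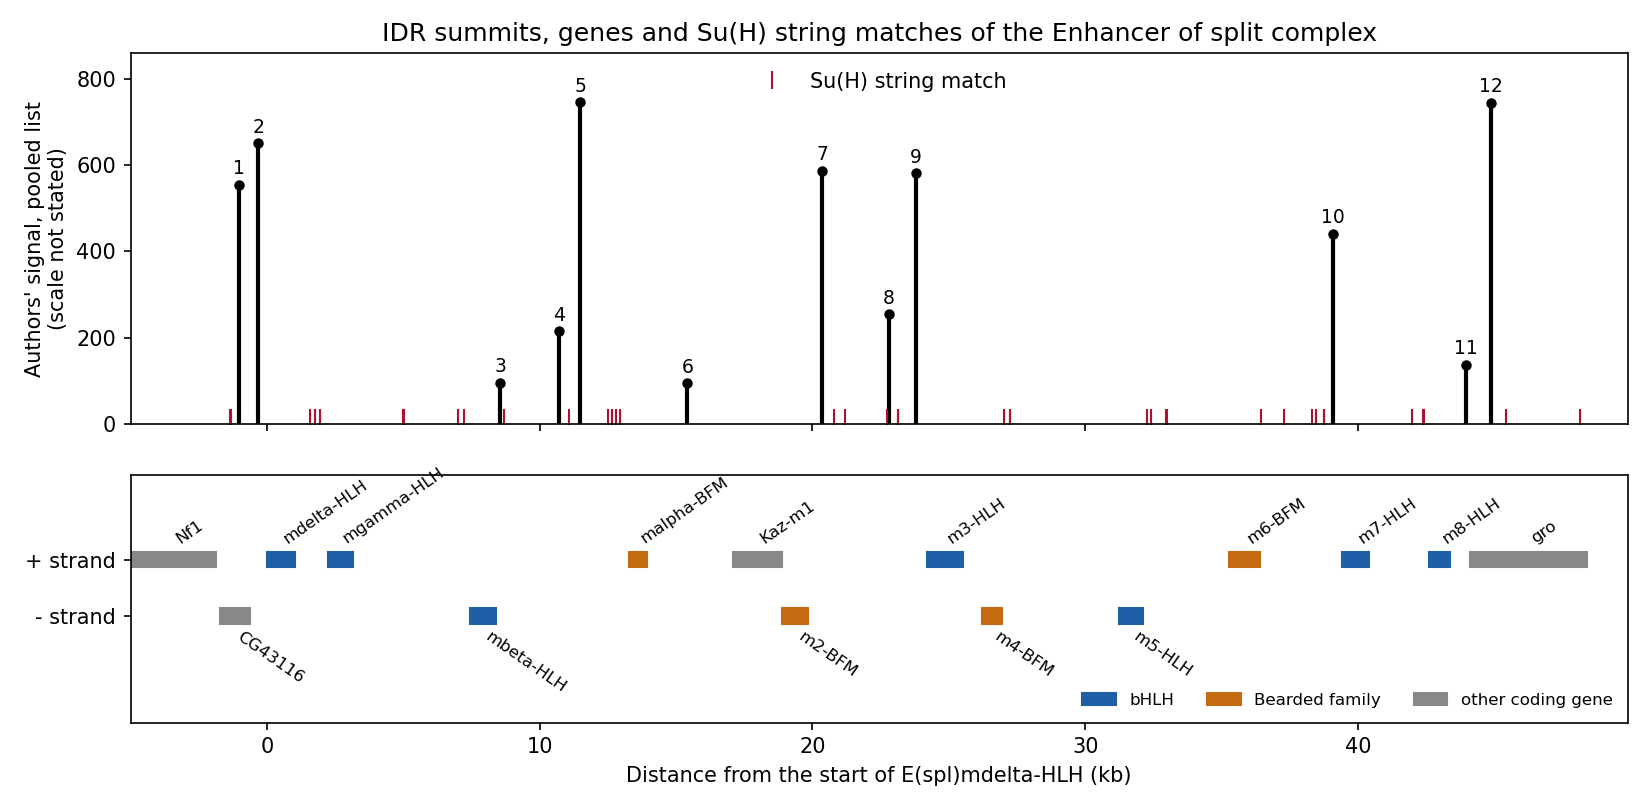
Map of the complex with the x axis in kb from the start of E(spl)mdelta-HLH. The upper panel plots each of the 12 numbered summits as a stem whose height is the authors' signal in the pooled list, with matches to the Su(H) strings as red ticks, and the lower panel shows the coding genes by strand. Summits 5 and 12 are the tallest, and no summit stands in the 15.3 kb between summits 9 and 10.

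At the proximal end, summit 2 lay between the divergent genes CG43116 and E(spl)mdelta-HLH, 301 bp upstream of the former and 324 bp upstream of the latter. The signal of summit 2 was 651, and its rank was 409, 290 and 241 in replicates 1, 2 and 3. Summit 1, in the CG43116 intron, had a signal of 555 and ranked 385, 416 and 489. Both stood among the top 500 ranks of every replicate.

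The bHLH gene E(spl)mbeta-HLH had the summit nearest to a member's start, at 143 bp, and one of the weakest. The signal of summit 3 was 96.3 and its rank in the IDR list was 6219. It ranked 7531, 6384 and 8694 in the replicates, so only replicate 2 placed it among its top peaks. Further upstream, nearest to the noncoding RNA gene CR45039, summit 4 had a signal of 215 and ranked 2293, 3992 and 1979.

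Summit 5 lay 1795 bp upstream of E(spl)malpha-BFM, a Bearded family gene, and had the highest signal of the complex at 746, or rank 234 of 7089. In the replicates it ranked 299, 160 and 259, a mean of 239 ± 71.6 (SD, n = 3). Summit 6, between E(spl)malpha-BFM and Kaz-m1, was the weakest at 94.1, and its ranks of 5858, 6072 and 11503 put it outside the top peaks of replicate 3.

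E(spl)m2-BFM, also of the Bearded family, had summit 7 at 512 bp upstream, just past the 500 bp limit. Its signal was 587, and its ranks of 472, 369 and 416 gave a mean of 419 ± 51.6 (SD, n = 3). All 3 ranks were within the first 500 places.

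Upstream of the bHLH gene E(spl)m3-HLH were summits 8 and 9. Summit 9 lay 416 bp upstream of the E(spl)m3-HLH start and 331 bp from the start of the noncoding RNA gene CR43644, with a signal of 582. Its overlapping peaks ranked 666, 300 and 303, although the pooled summit itself lay just outside the replicate 1 peak. Summit 8 was weaker, with a signal of 254 and ranks of 1495, 2571 and 1694.

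E(spl)m7-HLH had summit 10 at 334 bp upstream, with a signal of 441 and ranks of 928, 858 and 565. The distal end was marked by gro, whose protein is the co-repressor of the bHLH proteins. Summit 12 lay 139 bp upstream of an internal start of gro, with a signal of 745 and ranks of 281, 272 and 190, a mean of 248 ± 50.1 (SD, n = 3). Summit 11 lay 141 bp upstream of another gro start and had a signal of 138. Its ranks of 4102, 2246 and 10765 varied most of the 12, with an SD of 4480.

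**Figure D2:**
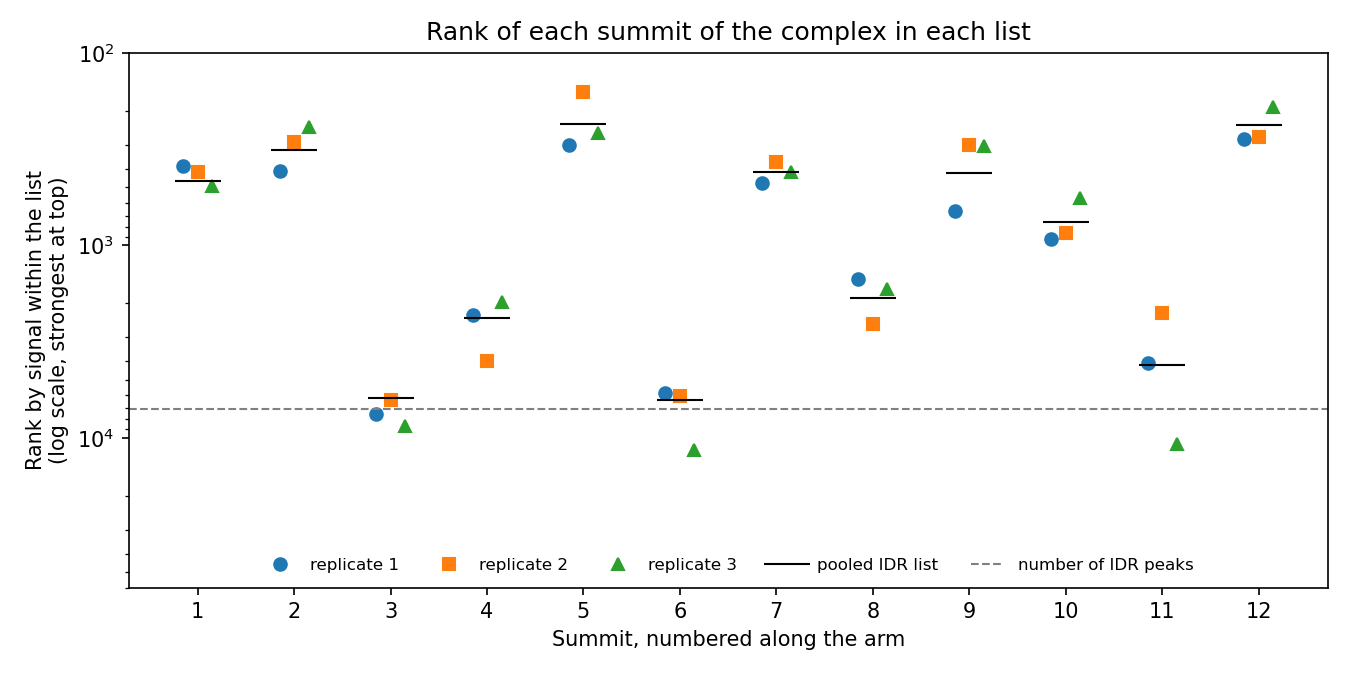
Rank of each of the 12 summits by signal (y axis, log scale, strongest at the top) in replicates 1 to 3 (points) and in the pooled IDR list (black bars), with the number of IDR peaks as a dashed line. Summits 3, 6 and 11 have a replicate below the dashed line, and the replicates of summits 1, 2, 5, 7 and 12 stay above rank 500.

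Across the complex, 6 of the 12 summits ranked within the 708 highest-signal IDR peaks and 9 within the 3544 highest. Their median signal was 498, against 158 over all IDR peaks. By the rule that a replicate peak must contain the pooled summit, 8 were among the top peaks of all 3 replicates, 3 of 2 replicates and 1 of 1 replicate. That is 66.7%, against 67.4% of all IDR summits, so the summits of the complex were shared between replicates about as often as the rest. Just inside the threshold were summits 3 and 6 at ranks 6219 and 6378. Just outside it, the pooled list had peaks at ranks 7143 (714 bp upstream of E(spl)m2-BFM), 7227 and 7243. The pooled and replicate summits lay a median of 13.0, 12.5 and 11.5 bp apart in replicates 1, 2 and 3. Over all IDR summits the medians were 17.0, 21.0 and 23.0 bp. Only summits inside a replicate peak entered, which left 11 in replicate 1. Summit 9, left out there, was 124 bp from the summit of its overlapping peak.

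A gene counted as bound if at least 1 annotated start had a summit of the IDR list no more than 500 bp away. By this rule 4 of the 10 genes were bound, against a background of 19.5% of coding genes. They were E(spl)mdelta-HLH, E(spl)mbeta-HLH, E(spl)m3-HLH and E(spl)m7-HLH. All 4 were bHLH genes, 4 of the 7, and 0 of the 3 Bearded family genes were bound, although summit 7 missed E(spl)m2-BFM by little. With the top peaks of each replicate, the count was 3 in replicate 1 (background 20.8%), 4 in replicate 2 (20.7%) and 3 in replicate 3 (20.0%), and E(spl)mbeta-HLH was the gene that replicates 1 and 3 lacked.

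The count rested on the distance used. Within 200 bp only E(spl)mbeta-HLH was bound (background 12.7%), and within 1000 bp E(spl)m2-BFM joined to make 5 (23.2%). Counting a summit only for its nearest start left 2, E(spl)mbeta-HLH and E(spl)m7-HLH (14.7%). Measured from the gene's 5′ end there were again 4 (16.8%), and with the 3544 highest-signal IDR peaks there were 3 (11.8%). The pooled list of 30000 gave 6, adding E(spl)malpha-BFM and E(spl)m5-HLH (38.9%). Among the IDR peaks backed by both other replicates, 3 genes were bound without replicate 1 (14.6% of coding genes), 2 without replicate 2 (15.2%) and 2 without replicate 3 (15.9%). A count of 2 of 10 is near that background.

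**Figure D3:**
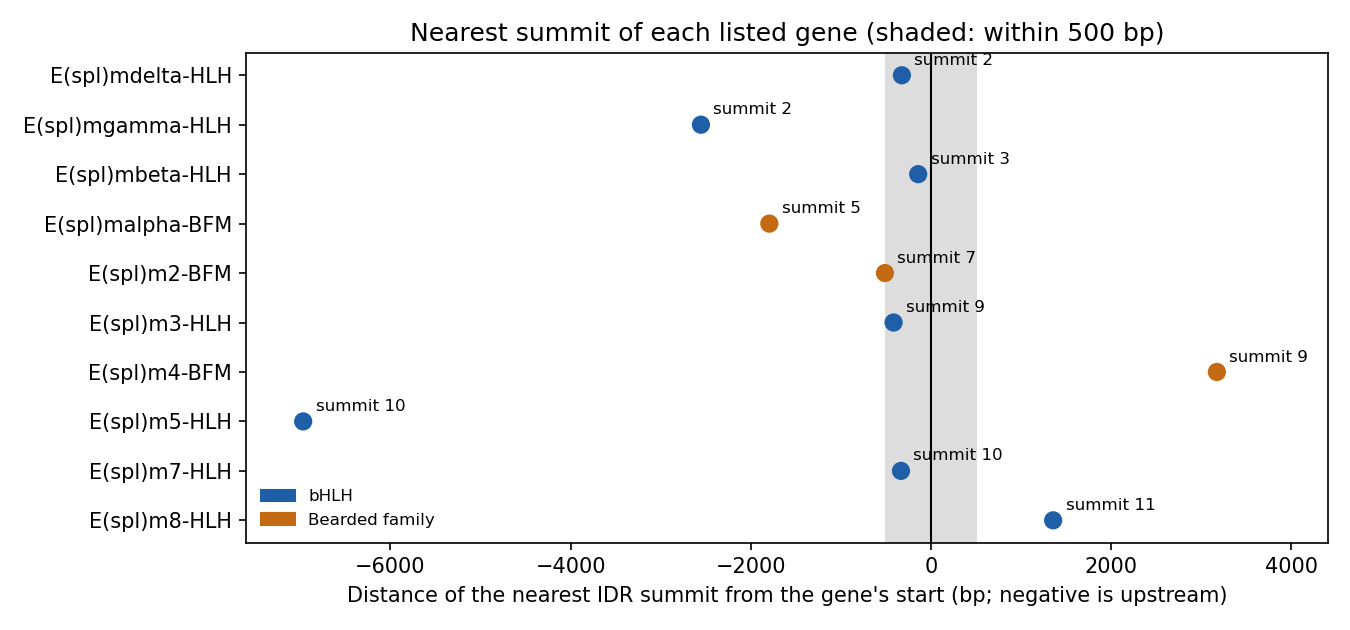
Distance in bp from the start of each of the 10 genes (rows) to its nearest IDR summit (x axis, negative is upstream), coloured by family, with 500 bp either side shaded. Only 4 bHLH genes fall in the shaded band, and E(spl)m2-BFM lies at its edge.

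Apart from E(spl)m2-BFM, whose summit 7 lay just past the limit, the genes not bound had no strong peak near their start. For E(spl)mgamma-HLH and E(spl)m8-HLH, no replicate list held a peak within 500 bp of the start. E(spl)m4-BFM and E(spl)m5-HLH had one in replicate 2 only, at ranks 17177 and 17493. E(spl)malpha-BFM had weak peaks in all 3, at ranks 28884, 13927 and 9979. The starts of E(spl)mgamma-HLH, E(spl)m4-BFM and E(spl)m5-HLH lay in the longest intervals without a summit. Such a position was not particular to genes not bound. The interval between summits 2 and 3 also held the starts of the bound genes E(spl)mdelta-HLH and E(spl)mbeta-HLH, nearer to its ends. That between summits 9 and 10 also held the start of the bound gene E(spl)m3-HLH, 416 bp from summit 9. Between summits 2 and 3, 8.9 kb around E(spl)mgamma-HLH, the best pooled peak ranked 9303. Between summits 9 and 10, 15.3 kb around E(spl)m4-BFM and E(spl)m5-HLH, it ranked 7227. That peak was nearest to the start of E(spl)m6-BFM, a Bearded family gene of the complex outside the 10 listed. More than 250 bp from the flanking summits, neither interval held a top peak of any replicate.

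Su(H), the DNA-binding factor of the pathway, reads a well known string, here CGTGAGAA, CGTGGGAA, TGTGAGAA or TGTGGGAA on either strand. The complex held 40 matches, or 7.49 per 10 kb, against 1.06 over the 6 arms. Matches lay within 1 kb upstream of 8 of the 10 starts. The 2 genes with none there, E(spl)mdelta-HLH and E(spl)m3-HLH, were both bound. Their nearest upstream matches lay past the 1 kb limit, at -1312 bp and -1043 bp from the start (negative is upstream). The bound genes E(spl)mbeta-HLH and E(spl)m7-HLH had 1 and 3 matches within 1 kb, and all genes not bound had at least 1. A link between matches and binding was not tested. In the complex 8 pairs of neighbouring matches ran in opposite directions, without overlap and with at most 35 bp between their starts. The pairs upstream of the bound genes E(spl)mdelta-HLH and E(spl)m7-HLH, and the pair at E(spl)m8-HLH, which was not bound, are shown with both matches in capitals.
Pair upstream of E(spl)mdelta-HLH, chr3R:25996282-25996312, + strand: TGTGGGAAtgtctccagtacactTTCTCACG
Pair upstream of E(spl)m7-HLH, chr3R:26036369-26036401, + strand: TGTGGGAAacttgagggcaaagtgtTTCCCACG
Pair upstream of E(spl)m8-HLH, chr3R:26040016-26040048, + strand: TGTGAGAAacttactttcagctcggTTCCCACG

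The first pair lay 309 bp from summit 1, the next 319 bp from summit 10, and the last 1563 bp from summit 11.

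Su(H) matches under the peaks were counted beside the share of the complex that the peaks cover. Of the 40 matches, 2 lay inside an IDR peak, and the peaks cover 8.13% of the complex. A count this small is near that share, and no difference from it was tested. A match lay within 500 bp of 7 of the 12 summits (58.3%), against 38.2% of all positions in the complex and 10.6% of all IDR summits. Within 100 bp there was 1 (8.33%), against 11.5% of positions and 2.02% of all IDR summits. In the 200 bp around the summit, only summit 8 held a match, TGTGAGAA, against 1.9% of all IDR summits and 1.89% of promoters.

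Other strings were sought on both strands in the same 200 bp. The sites of E(spl) bHLH proteins, CACGTG and CACGCG, occurred at 1 summit (summit 4), against 4.03% of all IDR summits and 5.77% of promoters. The general E-box CANNTG, which bHLH proteins bind, occurred at 8 of 12, against 56.4% of IDR summits and 61.4% of promoters. The proneural forms ACAGGTG or ACAGCTG or GCAGGTG or GCAGCTG, each also an E-box, occurred at 0 of 12, against 7.77% and 12.6%. TATAAA, the core promoter string, occurred at 4, against 38.8% and 36.5%. A run of 8 A bases, AAAAAAAA, and the homeodomain string TAATTA each occurred at 4, against 19.5% and 18.6% of IDR summits. The count for TAATTA was 2 without replicate 1, without replicate 2, with the 3544 highest-signal peaks and in 100 bp windows. The N-box CACNAG occurred at 2 (17.2% of IDR summits) and GAGAG at 2 (21.9%), while TATCGATA and CAGGTA occurred at none.

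The summits of the complex were rich in A and T. In the central 100 bp the mean A/T share was 69.9%, ranging from 46.0% at summit 3 to 81.0% at summit 7, against 67.8% over all IDR summits and 55.7% over the complex. With each replicate's own top summits in the complex the mean was 69.2 ± 0.867% (SD, n = 3). The centre exceeded both flanks, taken 200 bp to either side, at 10 of the 12 summits, and at 69.4% of all IDR summits. The flank to the right averaged 46.3%, against 55.7% over all IDR summits, and the left flank averaged 57.3%, against 56.7%. An A/T run of 10 or more bases lay at 9 of 12 (75.0%), against 58.4%.

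**Figure D4:**
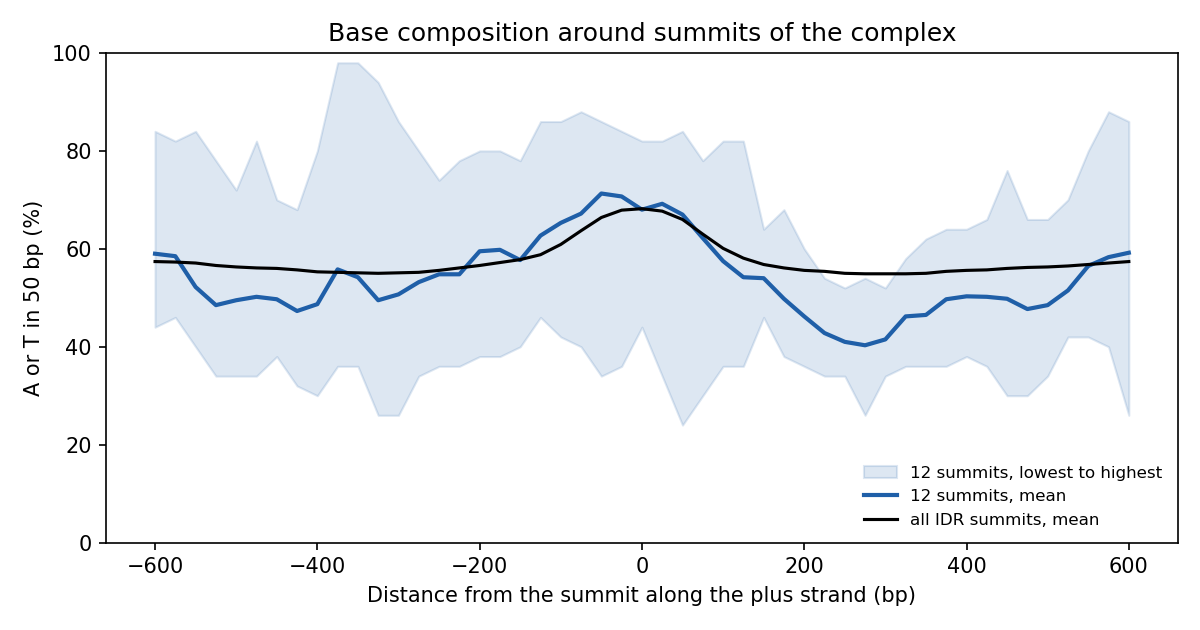
Share of A or T in 50 bp windows (y axis, %) by distance from the summit along the plus strand (x axis, bp), for the mean of the 12 summits of the complex (blue line, with the lowest and highest summit as the shaded band) and for the mean of all 7089 IDR summits (black line). Both means peak near the centre, and the mean of the 12 falls lower to the right.

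The complex held more summits per kb than its arm, a count that its choice had used. It held 2.25 IDR summits per 10 kb, against 0.505 on arm 3R and 0.53 on all 6 arms. The replicates' top peaks gave 12, 12 and 10 summits, or 2.12 ± 0.216 per 10 kb (SD, n = 3). Of 2504 windows of the same length tiled along the arms, 2.36% held 12 or more summits, and the highest count was 22. Other clusters of developmental genes were set beside it, each with the same margins. The Bearded complex held 2 summits (0.493 per 10 kb), the achaete-scute complex of proneural genes 7 (0.679) and the iroquois complex of prepattern genes 6 (0.43). None of their genes matched in the annotation was bound, and their best ranks were 3111, 2313 and 2759.

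**Figure D5:**
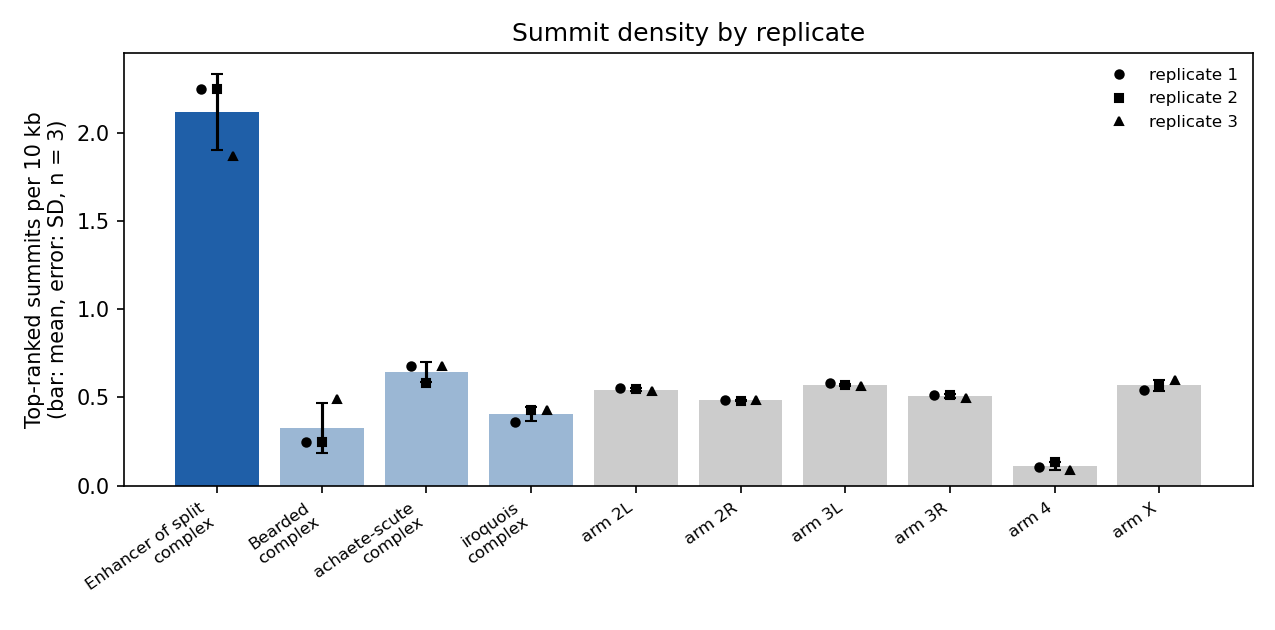
Top summits per 10 kb (y axis) in the Enhancer of split complex, 3 other gene clusters and 6 chromosome arms, as the mean of 3 replicates (bars, with SD) and each replicate (points). The complex averages 2.12 and the other clusters lie below 0.7.

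The wider Notch pathway was read from lists of 45 genes, of which 39 matched the annotation and 9 (23.1%) were bound, against 19.5% of coding genes. With the top peaks of each replicate the number was 12, 7 and 10. The 9 include gro, whose summits lie in the region that was chosen on these peak values. By role, 1 of 3 ligand and ligand endocytosis genes was bound, 2 of 4 for the receptor and its modification, 1 of 4 proteases, 2 of 5 trafficking regulators and 2 of 5 nuclear factors. Dl among the ligands, nct among the proteases and lgd among the trafficking regulators matched no annotated gene name and were not examined. In the remaining lists, 1 of 9 proneural and bristle genes was bound, with 0 of 4 related HES and HEY repressors and 0 of 5 other Bearded family genes. The last list includes E(spl)m6-BFM, which lies inside the complex. Of these lists, h, BobB and BobC matched no annotated gene name.

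The strongest of these summits lay at gro, described above, and at numb, whose protein holds Notch down in the daughter cell that inherits it. The numb summit lay 260 bp upstream of a start, with a signal of 568 and ranks of 346, 391 and 588. At neur, which encodes the ubiquitin ligase that the Bearded family opposes, the summit lay 254 bp upstream, with a signal of 415 and ranks of 809, 915 and 943. The summit at mam, encoding the co-activator Mastermind, lay 306 bp upstream with a signal of 412 and ranks of 999, 870 and 696. These 3 summits were among the top 1000 peaks of every replicate.

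The aph-1 gene, for a subunit of the protease that releases the Notch intracellular part, had a summit with a signal of 447 that ranked 583 and 1004 in replicates 1 and 3 and lay inside no peak of replicate 2. Weaker summits lay at Nedd4, a ubiquitin ligase (rank 4131), at O-fut1, which adds fucose to Notch (4372), at fng, which extends that sugar (5768), and at emc, an inhibitor of proneural proteins (5962).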

How the data were processed

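ChIP-seq peak lists from 3 biological replicates of whole prepupae were analysed. The authors deposited narrowPeak lists on dm6 and dm3. The dm6 lists were used: 1 IDR list, 1 pooled list and 3 replicate lists, 5 in all. Column 7 is the authors' signal, on an unstated scale, and was used to rank peaks within 1 list. The deposited column 9 holds −log10 of a q-value and did not serve for ranking. For read alignment, peak calling and the IDR cutoff, tools and settings remain not given in the sources used here. Summits are column 2 plus column 10, given 1-based. Genes came from Ensembl release 115 (BDGP 6.54) without transposable elements, and sequences from the RefSeq release 6 genome. Replicate ranks are those of the strongest peak overlapping the IDR peak by 1 bp, and for genes outside the complex those of the strongest peak containing the summit. Promoters for string shares are the 200 bp before the first listed start of each coding gene. No p-values were computed, since the complex was chosen on these values. Members and gene lists were chosen with earlier results of these data known, and some lists hold genes not matched here. The genes named were all members, the genes nearest to summits, and bound genes of the lists. The scripts were tested on simulated peaks. Python 3.11.15, pandas 2.3.3 and numpy 2.4.6 were used. Apart from the sequences printed, a further one is not reported here.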

Additional observations from a re-analysis of the deposited data

How the results depend on the processing

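The number of summits in the complex was 12, 8 to 10 when a replicate was left out, and 35 with all 30000 pooled peaks. Some of the added pooled peaks overlapped IDR peaks of the 12 summits. With no margin the number was 8, since summits 1, 2, 11 and 12 lay in the 5 kb margins. It was 12 with a margin of 10 kb. Leaving out a replicate kept only IDR peaks in the top peaks of both others, which can lower a count by construction, and the pooled list was not called again. The number of genes bound was 4, 2 to 3 with a replicate left out (2 without replicate 2 and without replicate 3, where 15.2% and 15.9% of coding genes were bound, and 14.6% without replicate 1), 1 at 200 bp and 2 with the nearest start only. Summit 9, at E(spl)m3-HLH, lies just outside the replicate 1 peak, so it drops out without replicate 2 or 3. Density was 2.25 per 10 kb, 1.5 to 1.87 with a replicate left out, 1.69 with the 3544 highest-signal peaks, 1.84 with no margin and 1.89 with a margin of 10 kb. The A/T share was 69.9%, 71.2 to 71.8% with a replicate left out, 71.8% with the 3544 highest-signal peaks and 67.3% in 200 bp windows. The count of summits with a Su(H) string fell from 1 to 0 in 100 bp windows. Summits among the top peaks of all 3 replicates numbered 8 and ranged from 7 to 10 under the alternatives, with 9 when peaks had only to overlap by 1 bp, a rule chosen after seeing the data. Of 50 values for the other strings, 38 stayed within the limits and 12 moved, all for the N-box, GAGAG and TAATTA strings. The dm3 lists were not run. No paired analysis was possible because there is 1 group. Read depth is unknown and limits how far weak peaks can be read.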
